A study of Mus musculus with 22 samples.

Results

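The genes described here are the repressors of the circadian clock and the genes that the clock drives through short E-box and D-box DNA elements, as read in RNA of sorted mouse lung epithelial cells. They are set by gene symbol as Nr1d1, Nr1d2, Per1, Per2, Per3, Dbp, Tef, Hlf, Ciart and Bhlhe41. These are 10 of the 54373 genes counted and of 21793 protein-coding ones. They were chosen by their known roles and not by a threshold on a measured value, but with earlier results of these data known. Shares of members set beside shares of all genes therefore describe this set and are no independent evidence. All 10 passed the filter on low counts in the fits that gave the values below, although 2 of them, Dbp and Ciart, did so at steady state only with the AhR-KO libraries, as did Dbp after HDM. A stricter filter of at least 10 counts in every library kept 8 members at steady state and 6 after HDM. The study asked how the aryl hydrocarbon receptor (AhR), a ligand-activated transcription factor, and CYP1B1, a cytochrome P450 enzyme whose gene AhR induces, act in the airway epithelium with and without allergic airway inflammation. Its 22 bulk RNA-seq libraries came from C57BL/6 wild-type (WT) mice and from whole-body AhR-KO and CYP1B1-KO mice bred back to C57BL/6, all over 7 weeks old and kept pathogen-free on a dark-light cycle. At steady state (naive mice) there were 4 WT, 3 AhR-KO and 3 CYP1B1-KO libraries. After house dust mite (HDM) extract there were 4 libraries of each genotype, from mice sensitized through the nose at 50 µg/ml and challenged from 8 days later on 4 days at 500 µg/ml, with 10 µl per nostril each time, and killed 72 h after the last dose. The cells were live and sorted as CD45-EpCAM+, with CD31 as a further negative marker where the study describes its results. A deletion in every cell of the body limits each knockout as a model of the epithelium alone, and the time of day at which the lungs were taken, on which the levels of clock genes depend, is not given in the sources used here. The labels do not say whether each library came from its own mouse, so the p-values measure the spread between libraries, which may be technical in part.

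The circadian clock is a transcriptional loop that runs in nearly every cell of the body, the lung epithelium included. BMAL1 (Arntl) and CLOCK bind E-boxes and switch on the Per and Cry genes, whose proteins return to block BMAL1 and CLOCK, and the same pair drives Nr1d1, Nr1d2, Ciart, Bhlhe41 and the PAR bZIP factors DBP, TEF and HLF. REV-ERBα (Nr1d1) and REV-ERBβ (Nr1d2) bind ROR elements and hold down Arntl, Cry1 and Nfil3, while DBP, TEF and HLF activate D-boxes, which the repressor NFIL3 also binds. Genes switched on through E-boxes and D-boxes and genes held down by REV-ERB therefore peak at opposite phases of the day, and AhR, like BMAL1 and CLOCK, is a bHLH-PAS protein that binds a related short element.

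The 250 bases before the transcription start are shown for 5 members, 4 of them because their libraries did not overlap between AhR-KO and WT after HDM, and Ciart because it held the most E-box matches of the set. They were taken from RefSeq on GRCm38.p6, where 9 of the 10 members had 1 or more promoter windows and 11 windows in all. They are written 5′ to 3′ on the strand of the gene, all 5 on the minus strand, for Nr1d1 (chr11:98775378-98775627), Nr1d2 (chr14:18239107-18239356), Per3 (chr4:151044666-151044915), Bhlhe41 (chr6:145865421-145865670) and Ciart (chr3:95882229-95882478). Capitals mark, on either strand, the E-box CACGTG, its variant CACGTT, the D-box core TTANGTA, the ROR element core AGGTCA and the core GCGTG of the dioxin response element that AhR binds.
Nr1d1: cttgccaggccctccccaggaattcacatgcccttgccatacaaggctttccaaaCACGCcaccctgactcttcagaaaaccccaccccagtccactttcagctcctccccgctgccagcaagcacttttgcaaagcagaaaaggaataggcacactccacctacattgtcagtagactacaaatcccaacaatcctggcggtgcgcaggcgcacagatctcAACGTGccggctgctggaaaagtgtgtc
Nr1d2: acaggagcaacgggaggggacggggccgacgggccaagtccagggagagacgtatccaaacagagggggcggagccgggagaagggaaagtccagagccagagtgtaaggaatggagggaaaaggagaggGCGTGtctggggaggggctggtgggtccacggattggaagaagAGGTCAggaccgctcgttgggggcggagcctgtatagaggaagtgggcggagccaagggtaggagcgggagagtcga
Per3: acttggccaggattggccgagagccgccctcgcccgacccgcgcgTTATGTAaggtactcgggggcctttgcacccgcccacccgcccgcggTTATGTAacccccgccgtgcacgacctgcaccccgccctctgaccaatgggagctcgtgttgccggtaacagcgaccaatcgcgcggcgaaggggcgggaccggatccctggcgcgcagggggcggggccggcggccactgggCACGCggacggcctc
Bhlhe41: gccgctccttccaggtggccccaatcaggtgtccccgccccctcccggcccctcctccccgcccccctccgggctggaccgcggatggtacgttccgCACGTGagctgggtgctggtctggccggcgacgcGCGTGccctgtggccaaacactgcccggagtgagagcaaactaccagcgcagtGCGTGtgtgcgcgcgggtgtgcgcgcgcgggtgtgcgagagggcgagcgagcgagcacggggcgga
Ciart: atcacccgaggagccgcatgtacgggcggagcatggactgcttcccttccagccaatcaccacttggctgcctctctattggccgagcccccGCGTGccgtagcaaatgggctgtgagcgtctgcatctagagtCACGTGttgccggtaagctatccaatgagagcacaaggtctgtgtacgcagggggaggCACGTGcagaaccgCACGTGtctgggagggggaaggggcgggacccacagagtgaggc
In Ciart the E-box stood at -116, -58 and -44 from the start, in Bhlhe41 at -153, and in Per3 the D-box core stood at -205 and -158. Nr1d1 held the E-box variant at -28, and Nr1d2 held a ROR element core at -77. The E-box was found in 5 of the 11 member windows, in Per1, in both windows of Tef, in Ciart and in Bhlhe41, against 7.15% of 32851 windows of all genes. The E-box variant was in 1 member window and 4.68% of all windows, and the D-box core in 1 and 6.76%. The ROR element core, which Per1 held as well, was in 2 member windows and 16.3% of all. The members were listed as genes driven through E-boxes, so their E-box share is no independent evidence. The dioxin core, a shorter string, was in 32.4% of all windows and in 9 of the 11 member windows, with at least 1 match for each of the 9 genes. These are matches of letters and no evidence of binding.

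The libraries held 10476829 to 17707000 counts at steady state and 9654825 to 17878442 after HDM. The predicted gene Gm10800 took 9.54% to 29.2% of the counts at steady state and 0.00819% to 71.9% after HDM, so protein-coding depth without it ranged from 7967139 to 14675250 and from 2906316 to 16448289. The targeted genes did not follow the labels. Ahr was at 24.7, 21.9 and 27.4 CPM (counts relative to a library size adjusted by TMM, which after HDM ran from 2749070 to 40407000) in the steady-state AhR-KO libraries against 9.69 to 16.6 in WT, and Cyp1b1 was at 5.12, 7.60 and 8.05 CPM in CYP1B1-KO against 0.843 to 2.81, both counted over all exons, so that reads outside a deleted part still count. After HDM, Ahr was at 9.52 to 20.4 CPM in AhR-KO and 8.04 to 12.7 CPM in WT, and Cyp1b1 at 3.33 to 11.2 CPM in CYP1B1-KO and 0.567 to 2.04 CPM in WT. Below, AhR-KO and CYP1B1-KO therefore mean the libraries labelled so, and each direction is one between libraries labelled so. Epcam, the sorting marker, was at 170.4, 95.6, 123 and 188 CPM in the HDM WT libraries, at 111, 141, 54.6 and 64.3 CPM in AhR-KO, where replicates 3 and 4 lay below every WT library, and at 119 to 209 CPM in CYP1B1-KO. After HDM, Ptprc (CD45), which the sort should remove, was at 275, 187, 427 and 305 CPM in WT, at 111, 73.8, 22.2 and 11.1 CPM in AhR-KO and at 21.7 to 432 CPM in CYP1B1-KO, against 2.65 to 79.8 CPM for Ptprc at steady state. For Ptprc and for the marker sums, steady state and HDM have separate CPM scales. The 26 hematopoietic markers summed to 619 to 2638 CPM at steady state and, after HDM, to 3401 to 5419.6 CPM in WT and 4298 to 5156 CPM in CYP1B1-KO, but to 4891, 6633, 707 and 807 CPM in AhR-KO replicates 1 to 4. AhR-KO replicates 3 and 4 were also the only 2 HDM libraries with more than stray reads of Y-linked genes (Ddx3y at 53.8 and 52.2 CPM, at most 0.0639 CPM in the other 10), which all steady-state libraries carried.

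At steady state, most members had higher values in the libraries labelled AhR-KO than in WT. The repressor genes Nr1d1, Nr1d2 and Bhlhe41 were 4.57-fold, 2.97-fold and 2.67-fold above WT by the fitted fold change, and of the 10 members only Hlf had a fold change below 0 on the log2 scale. In 7 of 10 members, Ciart among them, every AhR-KO library lay above every WT library, against 2.54% of the 15547 genes tested. Ciart reached the count minimum of the filter in 3 AhR-KO libraries and in no other library, and Dbp in 2 AhR-KO libraries and 1 CYP1B1-KO library, so both passed the filter only with the AhR-KO libraries, and without them the count is 6 of 8. None of the members and 0% of all genes were called, which here means a Benjamini-Hochberg adjusted p of at most 0.05 in the quasi-likelihood test of edgeR. At an unadjusted p under 0.05, 8 members, Dbp and Ciart included, were higher, against 0.527% of genes in that direction. The likelihood ratio test of edgeR and DESeq2 each called 3 members, Nr1d1, Nr1d2 and Bhlhe41, and limma voom with sample weights called 2, Nr1d1 and Nr1d2, where 0.0708%, 0.0836% and 0.0708% of all genes were called by these tests in turn. The study itself named Nr1d1 and Nr1d2 from these libraries, so their direction is not independent evidence. The hematopoietic sums of AhR-KO (702 to 1705 CPM) and WT (969.6 to 2638 CPM) overlapped at steady state, as did the alveolar type 1 sums (25176 to 26179 and 23571 to 25873 CPM). The median log2 fold change of AhR-KO against WT was nevertheless -1.85 over the 22 hematopoietic markers tested and -0.97 over 5 endothelial markers, with none called, and their part in the differences was not tested.

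Nr1d1 (chr11:98767932-98775333, minus strand), which encodes REV-ERBα, was at 106, 106 and 178 CPM in AhR-KO replicates 1, 3 and 4, at 39.3, 22.4 and 65.7 CPM in CYP1B1-KO replicates 2, 3 and 4, and at 15.5, 14.4, 33.6 and 49.7 CPM in WT replicates 1 to 4. All 3 AhR-KO libraries were above the other 7, while CYP1B1-KO and WT overlapped. The log2 fold change of AhR-KO against WT was 2.19 ± 0.45 (SE), and the quasi-likelihood test of edgeR gave an adjusted p of 0.554. Of the exon bases of Nr1d1, 8.55% are shared with Thra on the opposite strand, and whether strand was used in counting is not stated. Thra, a thyroid hormone receptor, was at 19.4 to 21.6 CPM in AhR-KO and 21.9 to 25.0 CPM in WT.

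Nr1d2 (chr14:18204054-18239127, minus strand), which encodes REV-ERBβ, was at 127, 89.4 and 153 CPM in AhR-KO, 126, 47.9 and 77.2 CPM in CYP1B1-KO and 30.3, 33.5, 43.2 and 58.2 CPM in WT. AhR-KO did not overlap WT here either, but it did overlap CYP1B1-KO, whose replicate 2 reached the AhR-KO range. The log2 fold change was 1.57 ± 0.32 (SE) for AhR-KO against WT (adjusted p = 0.554) and 1.02 ± 0.32 (SE) for CYP1B1-KO against WT (adjusted p = 0.822), both from edgeR's quasi-likelihood test.

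The period genes encode the PER proteins, which carry the CRY proteins into the repressor complex. Per2 (chr1:91415982-91459324, minus strand) was at 48.2, 28.9 and 57.4 CPM in AhR-KO and 20.4, 28.6, 10.0 and 16.4 CPM in WT, and Per3 (chr4:151003652-151044665, minus strand) at 45.8, 28.6 and 37.0 CPM and 21.5, 22.1, 22.5 and 22.8 CPM. Both were above WT in every AhR-KO library, Per2 only narrowly, and the 4 WT libraries were almost equal for Per3. Their log2 fold changes were 1.25 ± 0.43 (SE) and 0.74 ± 0.27 (SE), and the quasi-likelihood test of edgeR gave both an adjusted p of 1.00. Per1 (chr11:69095217-69109960, plus strand), the period gene that also answers to acute signals, was at 13.1, 6.67 and 11.2 CPM in AhR-KO and 2.54, 10.5, 3.35 and 5.42 CPM in WT. WT replicate 2 lay inside the AhR-KO range, and the log2 fold change was 0.92 ± 0.41 (SE).

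Bhlhe41 (chr6:145858243-145865558, minus strand), also called Dec2, encodes a repressor that competes with BMAL1 and CLOCK for E-boxes. It was at 13.2, 11.0 and 19.1 CPM in AhR-KO, 5.82, 4.47 and 6.44 CPM in CYP1B1-KO and 7.52, 4.72, 5.22 and 4.22 CPM in WT. The 3 AhR-KO libraries were above all other 7, and CYP1B1-KO lay within the WT range. With a log2 fold change of 1.42 ± 0.26 (SE) and an adjusted p of 0.48, it ranked 4 of 15547 genes in the quasi-likelihood test of AhR-KO against WT. Ciart (chr3:95878503-95882251, minus strand), also called CHRONO, encodes a further repressor of BMAL1 and CLOCK and was scarce, at 1.12, 0.813 and 1.51 CPM in AhR-KO and 0.453, 0.635, 0.689 and 0.241 CPM in WT. AhR-KO did not overlap WT, with a log2 fold change of 1.21 ± 0.47 (SE), although 3 counts correspond to 0.181 to 0.301 CPM in these libraries. Of the exon bases of Bhlhe41, 19.0% are shared with the predicted gene Gm43909 on the opposite strand.

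The PAR bZIP genes carry the rhythm from E-boxes to D-box targets. Tef (chr15:81802421-81826863, plus strand) was abundant, at 249, 249.6 and 324 CPM in AhR-KO and 176, 185, 226 and 237 CPM in WT, which did not overlap but differed by a log2 fold change of only 0.41 ± 0.20 (SE). Dbp (chr7:45705088-45710203, plus strand) had 78, 18 and 4 counts in the AhR-KO libraries and 0, 1, 1 and 6 in WT, so its log2 fold change of 4.10 ± 1.18 (SE) rested on few reads and mainly on AhR-KO replicate 1. In CPM these were 6.73, 1.46 and 0.336 in AhR-KO and 0, 0.0908, 0.0984 and 0.361 in WT, and AhR-KO replicate 4 was below WT replicate 4. Dbp shares 18.0% of its exon bases with Sphk2, and Tef 2.45% with Gm17597, each on the opposite strand. Hlf (chr11:90336536-90390895, minus strand) was at 1.04, 1.46 and 1.17 CPM in AhR-KO and 1.63, 1.45, 2.07 and 1.14 CPM in WT, which overlapped, with a log2 fold change of -0.35 ± 0.35 (SE).

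**Figure D1:**
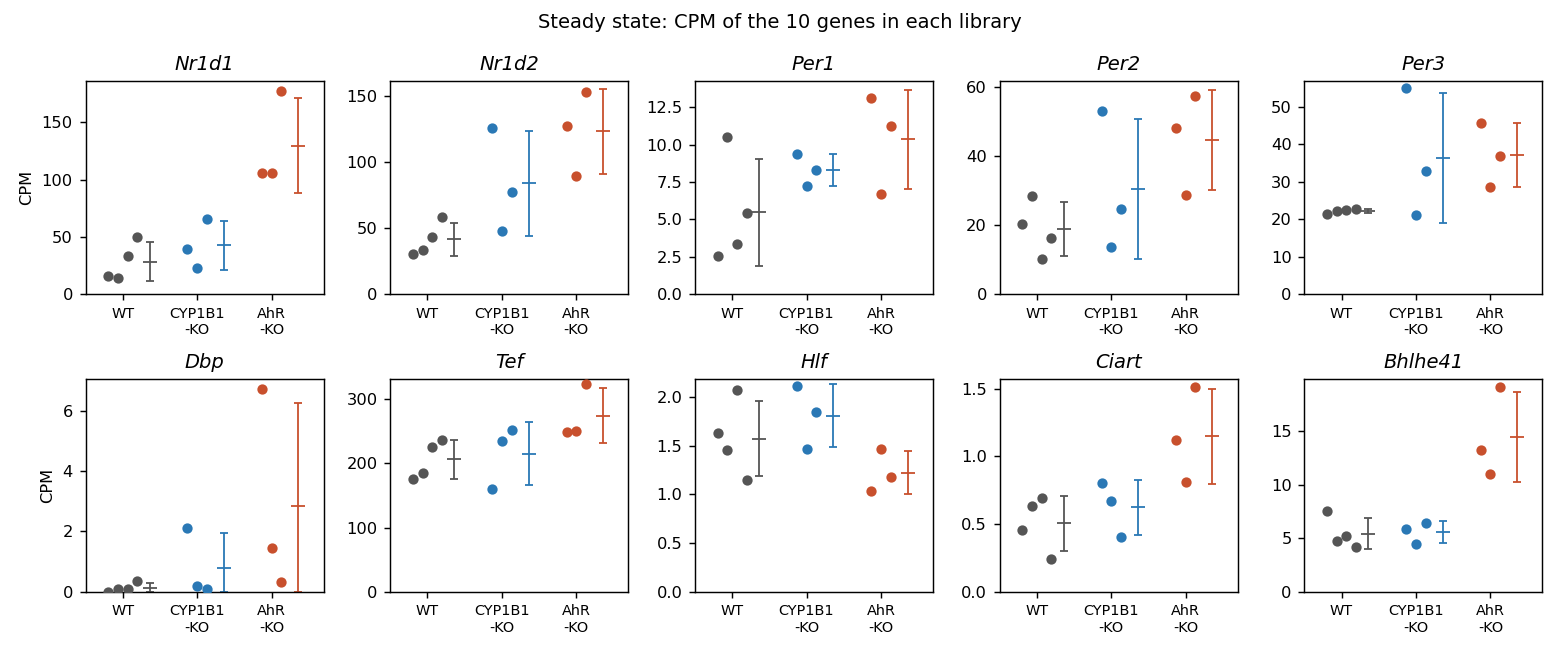
Level of each of the 10 members at steady state in CPM (linear axis from 0), with a point for each WT, AhR-KO and CYP1B1-KO library and the group mean ± SD, the lower end stopped at 0. The 3 AhR-KO points of Nr1d1 (106, 106 and 178 CPM) and of Bhlhe41 (13.2, 11.0 and 19.1 CPM) lie above all points of the other genotypes, while those of Hlf overlap WT.

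Per kilobase of exon, the WT levels at steady state were highest for Tef at 26.2 ± 3.80 CPM per kb (SD, n = 4), followed by Nr1d1 at 9.19 ± 5.44, Nr1d2 at 7.64 ± 2.31, Per2 at 3.22 ± 1.33, Per3 at 2.31 ± 0.0594, Per1 at 0.969 ± 0.638, Bhlhe41 at 0.806 ± 0.217, Hlf at 0.236 ± 0.0577, Ciart at 0.223 ± 0.0897 and Dbp at 0.0460 ± 0.0520. The neighbours Nr1d1 and Nr1d2, Per2 and Per3, Per1 and Bhlhe41, and Hlf and Ciart did not differ beyond their spread. In AhR-KO, Nr1d1 stood first at 42.2 ± 13.5 CPM per kb (SD, n = 3) and Tef after it at 34.9 ± 5.43, which again lay within the spread of Nr1d1.

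In the CYP1B1-KO libraries at steady state all 10 members had fold changes above 0 against WT, with a median log2 fold change of 0.59, but none was called by edgeR's quasi-likelihood test, its likelihood ratio test, DESeq2 or limma voom, against 0.0129% of genes called by the first. The cell markers differed there too, with median log2 fold changes of -1.66 over 22 hematopoietic, -0.84 over 5 alveolar type 2 and -0.68 over 5 endothelial markers, none called, and their part was not tested. At an unadjusted p under 0.05, 2 members were higher, Nr1d2 and Per3 at a log2 fold change of 0.70 ± 0.27 (SE), where 2.32% of all genes were. Without CYP1B1-KO replicate 2 the log2 fold change was 0.28 for Per3 and went from 1.02 to 0.60 for Nr1d2. Per3 was at 55.1, 21.1 and 32.8 CPM in the 3 CYP1B1-KO libraries, of which replicate 3 lay below WT. For Bhlhe41 the log2 fold change of CYP1B1-KO against WT was 0.04 (95% interval -0.48 to 0.57) and for Tef 0.06 (-0.33 to 0.45). Set directly against CYP1B1-KO, the AhR-KO libraries were higher at an unadjusted p under 0.05 for 2 members, Bhlhe41 by 1.37 ± 0.28 (SE) and Nr1d1 by 1.61 ± 0.48 (SE) on the log2 scale, against 2.08% of genes. Neither was called by the quasi-likelihood test (adjusted p = 0.634 and 0.936), where 0.00643% of genes were, and the likelihood ratio test of edgeR and DESeq2 called Bhlhe41 alone among the members, and 0.0579% and 0.09% of all genes. Both knockouts were compared with the same 4 WT libraries, so their fold changes against WT are not independent.

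After HDM, 5 members passed the test, all with higher levels in the AhR-KO libraries. In AhR-KO against WT, Nr1d1 rose 5.41-fold, Per3 5.04-fold, Bhlhe41 3.95-fold, Per2 3.36-fold and Nr1d2 3.15-fold, and no member fell. Called in the same direction were 9.22% of the 14161 genes tested, and in either direction 22.1%. The median log2 fold change of the 10 members was 1.85, against -0.0017 over all genes, and 1.75 over the 9 members without Dbp, which passed the filter only with the AhR-KO libraries. In 4 members, Nr1d1, Nr1d2, Per3 and Bhlhe41, no AhR-KO library overlapped a WT library, against 9.63% of genes in that direction. The CYP1B1-KO libraries overlapped WT in all 10 members, while 1.19% of genes did not overlap.

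Nr1d1 was at 16.4, 28.3, 22.2 and 27.8 CPM in AhR-KO replicates 1 to 4, 5.98, 15.7, 1.31 and 3.71 CPM in CYP1B1-KO and 3.82, 11.6, 1.94 and 1.55 CPM in WT. The 4 AhR-KO libraries were the highest 4 of the 12, and WT replicate 2 and CYP1B1-KO replicate 2 stood above the rest of their groups. The log2 fold change was 2.44 ± 0.73 (SE), and the quasi-likelihood test of edgeR gave an adjusted p of 0.0364. The overlapping Thra was at 15.9, 7.48, 16.7 and 19.8 CPM in AhR-KO and 4.93, 7.49, 1.94 and 2.30 CPM in WT, so in 3 of 4 AhR-KO libraries Thra was above WT too. Nr1d2 was at 72.9, 30.1, 53.5 and 48.0 CPM in AhR-KO and 16.7, 29.7, 7.44 and 11.7 CPM in WT. AhR-KO replicate 2 and WT replicate 2 nearly met, and the log2 fold change was 1.66 ± 0.46 (SE) (adjusted p = 0.0313).

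Per3 was at 42.4, 13.6, 18.9 and 24.7 CPM in AhR-KO, 5.98, 11.7, 2.26 and 3.63 CPM in CYP1B1-KO and 4.39, 11.6, 2.75 and 2.36 CPM in WT. AhR-KO lay above both other genotypes in every library, and its replicate 1 was far above the rest. The log2 fold change was 2.33 ± 0.60 (SE), and the quasi-likelihood test of edgeR gave an adjusted p of 0.0277. Per2 was at 27.9, 9.91, 14.9 and 14.8 CPM in AhR-KO and 5.27, 10.7, 1.84 and 3.38 CPM in WT, where AhR-KO replicate 2 fell just below WT replicate 2, and rose by 1.75 ± 0.57 (SE) (adjusted p = 0.0452). Per1 was at 19.0, 6.97, 8.37 and 9.54 CPM in AhR-KO and 10.2, 10.7, 10.4 and 6.91 CPM in WT. Apart from AhR-KO replicate 1 these overlapped, with a log2 fold change of 0.23 ± 0.35 (SE).

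Bhlhe41 had the lowest p of the members, at 8.29, 3.39, 7.64 and 6.89 CPM in AhR-KO, 3.51, 1.43, 0.977 and 2.87 CPM in CYP1B1-KO and 1.59, 2.27, 1.02 and 1.82 CPM in WT. AhR-KO did not overlap WT, and only CYP1B1-KO replicate 1 reached above the lowest AhR-KO library. The log2 fold change was 1.98 ± 0.44 (SE), and the quasi-likelihood test of edgeR gave an adjusted p of 0.0261. Ciart was at 2.30, 1.09, 1.46 and 0.928 CPM in AhR-KO and 0.567, 1.59, 0.714 and 0.536 CPM in WT, overlapping through WT replicate 2, with a log2 fold change of 0.88 ± 0.60 (SE).

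Of the PAR bZIP genes, Tef was at 78.6, 28.2, 54.6 and 86.4 CPM in AhR-KO, 12.1, 29.7, 2.73 and 14.5 CPM in CYP1B1-KO and 20.7, 31.3, 8.46 and 4.29 CPM in WT. AhR-KO replicate 2 lay inside the WT range and the other 3 far above it, and the log2 fold change of 1.96 ± 0.69 (SE) missed the threshold (adjusted p = 0.0587 in edgeR's quasi-likelihood test). Dbp had 166, 41, 2 and 4 counts in AhR-KO, 0, 4, 9 and 13 in CYP1B1-KO and 18, 4, 2 and 3 in WT, and its CPM values of 4.11, 2.62, 0.728 and 0.530 in AhR-KO and 0.510, 0.908, 0.204 and 0.161 in WT overlapped. Its log2 fold change was 2.36 ± 0.87 (SE) (adjusted p = 0.065). Sphk2, which overlaps it, went the other way, at 2.18 to 5.31 CPM in AhR-KO and 5.90 to 9.09 CPM in WT. Hlf, at 0.346, 3.13, 1.82 and 1.19 CPM in AhR-KO and 0.652, 3.40, 0.306 and 0.964 CPM in WT, overlapped throughout, with a log2 fold change of 0.39 ± 0.82 (SE).

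**Figure D2:**
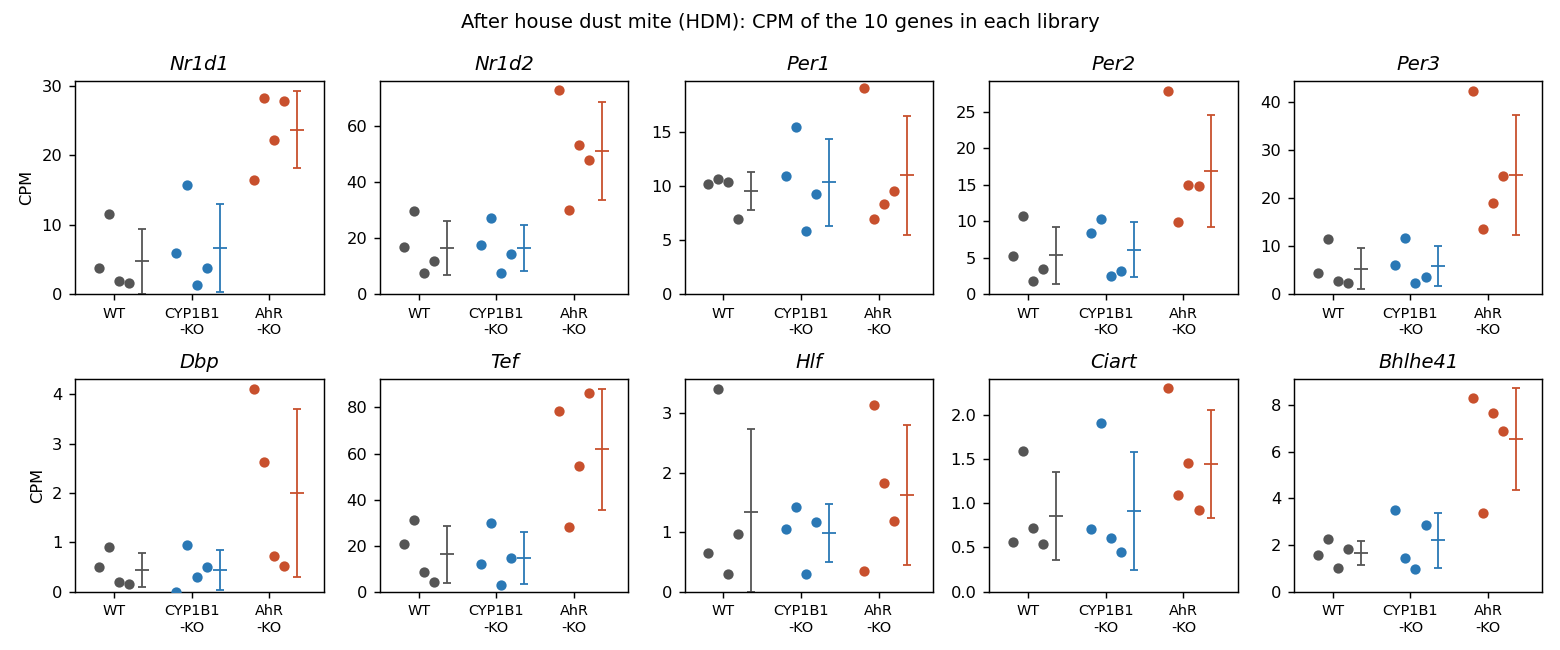
Level of each of the 10 members after HDM in CPM (linear axis from 0), with a point for each of 4 libraries per genotype and the group mean ± SD, the lower end stopped at 0. The AhR-KO points of Per3 run from 13.6 to 42.4 CPM, above the WT points from 2.36 to 11.6 CPM, while those of Per1 and Hlf overlap WT.

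These 5 calls changed as libraries were left out, and the AhR-KO and WT libraries after HDM also differed in cell markers. Of the hematopoietic markers, which were low in AhR-KO replicates 3 and 4, 7 of the 25 tested were called lower in AhR-KO than in WT. The 5 alveolar type 1 markers summed to 5728, 2154, 9829.5 and 12665 CPM in AhR-KO and 2529, 3429, 1153 and 430.1 CPM in WT, with a median log2 fold change of 1.60 and none called. The 3 club cell markers summed to 5438, 4921, 2415 and 1219 CPM in AhR-KO and 646, 1543, 186 and 161 CPM in WT, with a median log2 fold change of 2.44 and 1 of 3 called higher. Of 4 epithelial markers 1 was called higher, and of 5 endothelial markers 1 was called lower. The median log2 fold change was 1.21 over 5 mesenchymal and 0.93 over 4 ciliated markers, none called. The 5 alveolar type 2 markers summed to 48564.5, 24787, 6103 and 5486 CPM in AhR-KO and 14463, 11021, 4056 and 3139 CPM in WT. Their median log2 fold change was 0.56, with none called. In bulk RNA, fewer cells of a type and less RNA per cell cannot be told apart. AhR-KO replicate 1 lay within the WT range of the hematopoietic sum and replicate 2 above it, although Ptprc was lower in both, at 111 and 73.8 CPM, than in every WT library. They had Nr1d1 at 16.4 and 28.3 CPM, Per3 at 42.4 and 13.6 CPM and Bhlhe41 at 8.29 and 3.39 CPM, each above all 4 WT libraries. They had Nr1d2 at 72.9 and 30.1 CPM, where the highest WT library was at 29.7 CPM, and Per2 at 27.9 and 9.91 CPM, where replicate 2 was below the highest WT library at 10.7 CPM. Tef, which was not called, was at 78.6 and 28.2 CPM, with the highest WT library at 31.3 CPM. With both libraries that carry Y-linked reads left out, the log2 fold changes were 2.36 for Nr1d1, 1.71 for Nr1d2, 1.94 for Per2, 2.54 for Per3 and 1.86 for Bhlhe41, and edgeR's quasi-likelihood test put the adjusted p of each at 0.202. No member and no other gene was then called, nor with the mean log2 level of the hematopoietic markers as a covariate, where the log2 fold changes ran from 1.10 for Nr1d2 to 1.86 for Nr1d1. No gene was called either without AhR-KO replicate 1, 3 or 4 or WT replicate 3 or 4 taken singly, and without WT replicate 1 the calls fell to 1 member and from 3129 to 885 genes, while without AhR-KO replicate 2 they were 6 members and 29% of genes. Over these single omissions the log2 fold change stayed between 2.11 and 3.20 for Nr1d1, 1.42 and 2.06 for Nr1d2, 1.36 and 2.22 for Per2, 1.92 and 2.94 for Per3, and 1.81 and 2.21 for Bhlhe41. Without WT replicate 2, 3366 of 14956 genes were called. The log2 fold changes of Nr1d1, Nr1d2, Per2 and Per3 were then the highest of these omissions. The part of cell make-up in the differences was not tested beyond these values.

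**Figure D3:**
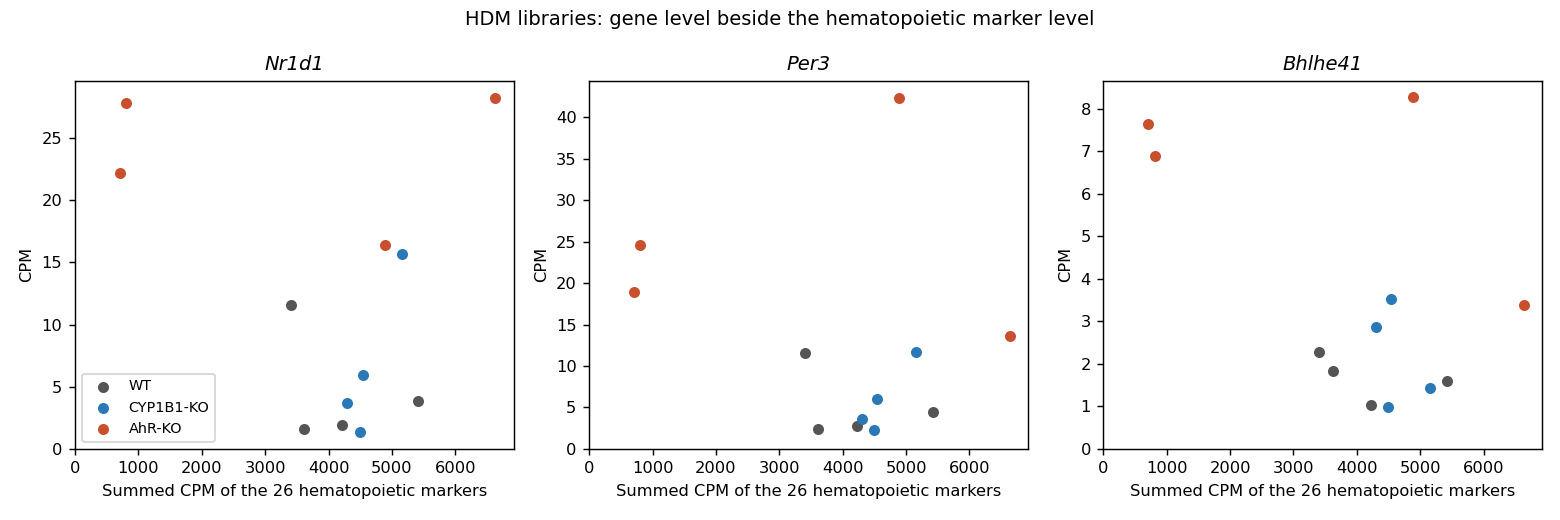
CPM of Nr1d1, Per3 and Bhlhe41 in the 12 HDM libraries against the summed CPM of 26 hematopoietic markers in the same library, with a point for each library marked by genotype. AhR-KO replicates 3 and 4 lie at the left with sums of 707 and 807 CPM, and AhR-KO replicates 1 and 2 lie at 4891 and 6633 CPM on that axis. Ptprc (CD45) in AhR-KO replicates 1 and 2, at 111 and 73.8 CPM, was nevertheless below every WT library.

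The CYP1B1-KO libraries after HDM gave no call in any member against WT by edgeR's quasi-likelihood test, its likelihood ratio test, DESeq2 or limma voom, nor a member with an unadjusted p under 0.05, against 0% of genes called by the first and 1.65% under that p. The log2 fold changes ranged from -0.37 for Hlf to 0.51 for Nr1d1, and the 95% intervals were wide, at -0.91 to 1.93 for Nr1d1, -1.03 to 1.34 for Per3 and -0.47 to 1.28 for Bhlhe41. AhR-KO set directly against CYP1B1-KO after HDM gave fold changes above 0 in all 10 members, from 0.14 for Per1 to 2.33 for Dbp on the log2 scale. In that comparison 7 members were higher at an unadjusted p under 0.05, against 13.5% of genes. They include Dbp, which passed the filter only with the AhR-KO libraries, and are 6 without it. None was called by the quasi-likelihood test, where 0.00706% of genes were. Their adjusted p ran from 0.0638 for Nr1d2, Per3 and Bhlhe41 to 0.0984 for Dbp, while the likelihood ratio test of edgeR called 7 members and DESeq2 and limma voom called 6 each, against 17.4%, 20.5% and 30.4% of all genes. Without CYP1B1-KO replicate 2 the quasi-likelihood test called 6 members and 20.7% of genes, and without AhR-KO replicate 2 it called 4 members and 18.8% of genes.

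**Figure D4:**
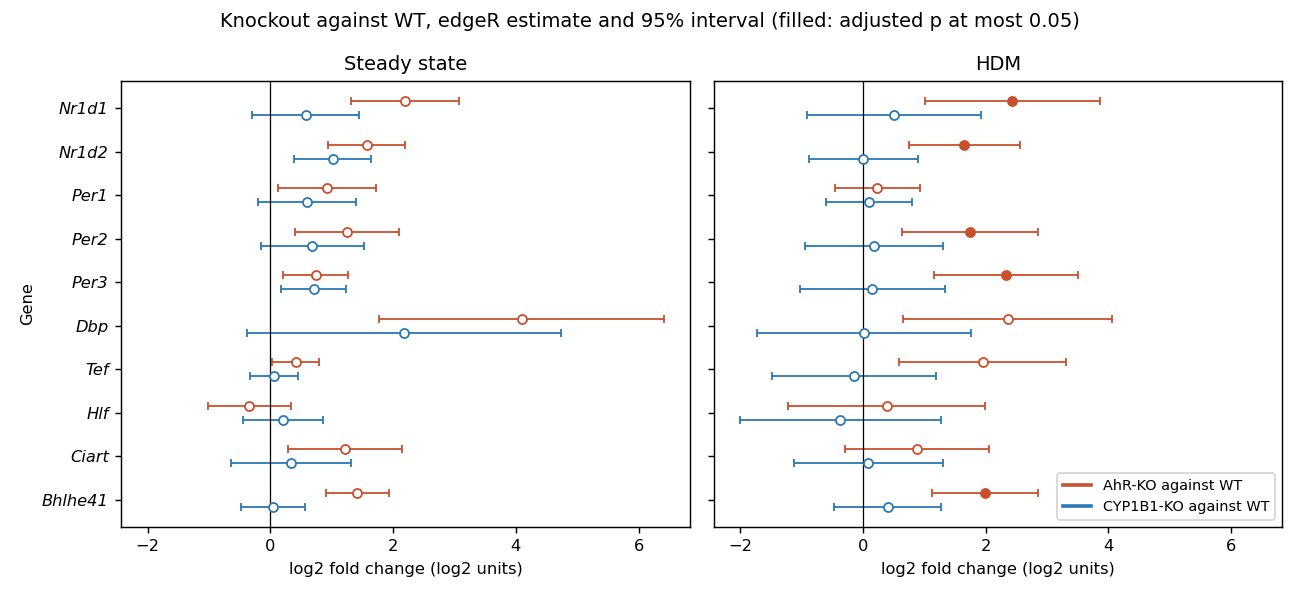
Fitted log2 fold changes of the 10 members for AhR-KO and CYP1B1-KO against WT at steady state and after HDM, with 95% intervals, and filled points where the adjusted p is at most 0.05. The filled points are Nr1d1, Nr1d2, Per2, Per3 and Bhlhe41 in AhR-KO after HDM, from 1.66 to 2.44, and the CYP1B1-KO intervals after HDM all include 0.

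Of 16 other clock genes (activators, CRY proteins, ROR and other regulators), 5 were lower and none higher in AhR-KO at steady state at an unadjusted p under 0.05, against 1.16% of genes lower, and none passed the adjusted test. The 5 hold Arntl, Cry1 and Nfil3, which REV-ERB is known to hold down, and the study itself named Cry1 from these libraries. Arntl, the gene of BMAL1, was at 18.3, 25.4 and 17.4 CPM in AhR-KO and 46.2 to 55.4 CPM in WT, with a log2 fold change of -1.29 ± 0.22 (SE) (adjusted p = 0.48 in edgeR's quasi-likelihood test). Cry1, a core repressor, was at 12.9, 13.3 and 15.0 CPM against 33.6 to 48.1 CPM, with -1.50 ± 0.29 (SE) (adjusted p = 0.52). Nfil3, the D-box repressor, was at -1.77 and Npas2, a partner of BMAL1 named after its value was seen, at -1.11. In all 5 the AhR-KO and WT libraries did not overlap, against 1.89% of genes in that direction. The likelihood ratio test of edgeR, DESeq2 and limma voom each called 2 of the 16, against the shares of all genes given above for these tests.

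After HDM the picture in these 16 was mixed, with 2 called higher and 3 lower in AhR-KO than in WT, against 9.22% and 12.9% of genes. Cry1 fell by 1.42 (adjusted p = 0.0261), Nfil3 fell by 1.83 (adjusted p = 0.0352) and Timeless, which also serves in replication, fell by 2.60 (adjusted p = 0.0267) on the log2 scale in edgeR's quasi-likelihood test. Clock, the gene of the partner of BMAL1, rose by 1.13 (adjusted p = 0.03). Arntl, lower in every AhR-KO library at steady state, had a log2 fold change of -0.26 ± 0.28 (SE) after HDM and Npas2 one of -0.06. The interaction of AhR-KO and HDM for Arntl was 0.99 ± 0.39 (SE) (adjusted p = 0.193 in edgeR's quasi-likelihood test), and none of the 16 was called for it, against 0% of genes. With both Y-linked libraries left out, the replicate number as a block or the hematopoietic covariate, none of the 16 was called.

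**Figure D5:**
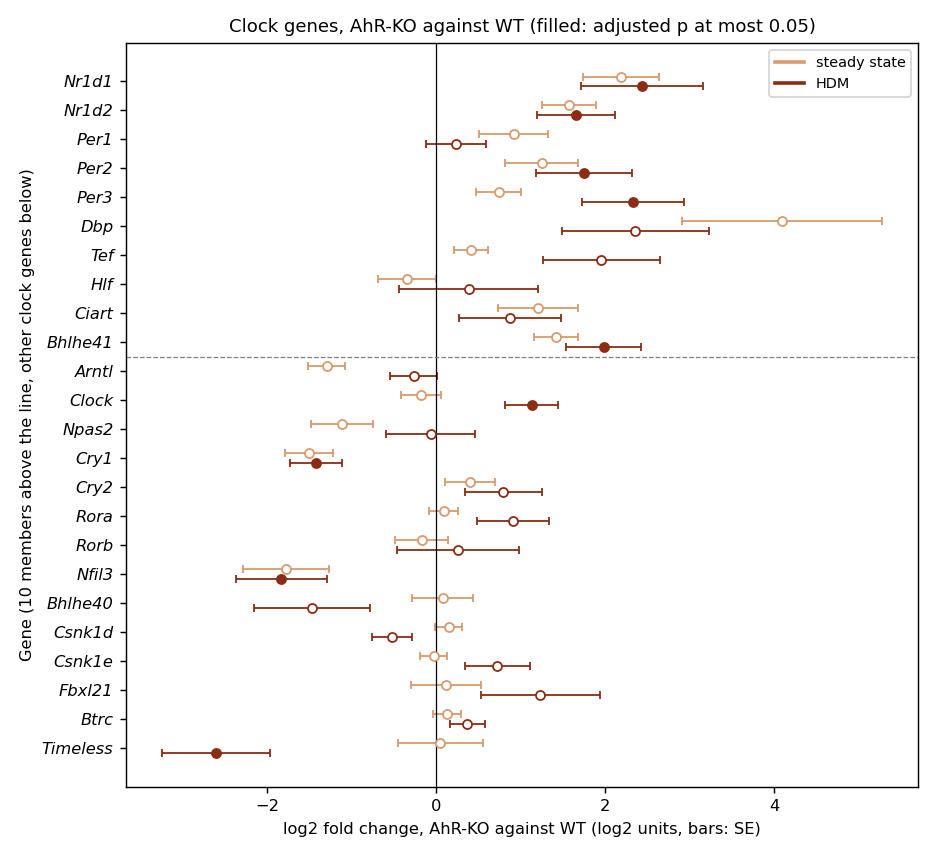
Log2 fold changes of AhR-KO against WT at steady state and after HDM with SE bars, for the 10 members above the dividing line and 14 of the 16 other clock genes below it. The members lie mostly above 0 in both states, and Cry1 lies at -1.50 and -1.42, and Arntl at -1.29 and -0.26.

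Of 10 further genes under clock control, none was called at steady state, against 0% of all genes, and 2 fell in AhR-KO after HDM, against 12.9% of genes lower and 22.1% in either direction, Nampt, the enzyme of NAD salvage, by 1.37 (adjusted p = 0.0347) and Cdkn1a, the cell cycle inhibitor p21, by 1.39 (adjusted p = 0.0439) on the log2 scale in edgeR's quasi-likelihood test. Alas1, the first enzyme of heme synthesis, was at 0.72 and Lonrf3 at 2.04 after HDM, neither called. Lonrf3 was scarce there, at 0.594 to 2.39 CPM in AhR-KO and 0 to 0.589 CPM in WT. Lonrf3 was at -0.73, Alas1 at 0.32 and Cdkn1a at -0.37 at steady state. Glucocorticoids also reset clock genes, and of 7 glucocorticoid targets none was called in either state, against 0% of genes at steady state and 22.1% after HDM. Klf9 was at 0.60 at steady state and 2.17 after HDM (adjusted p = 0.0502), Tsc22d3 (GILZ) at 0.92 at steady state, Errfi1 at 0.69 and 0.65, Fkbp5 at -0.50 and -0.47, and Dusp1 at 0.52 after HDM. Of 7 immediate early genes, which answer to handling of cells as well as to signals, none was called in either state either, against the same shares of genes, with Junb at -1.47, Atf3 at -0.86, Egr1 at 0.58 and Jun at -0.47 after HDM and Fosb at -0.47 and Ier2 at -0.39 at steady state.

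Between steady state and HDM, the members of WT went both ways. There, 2 members were higher after HDM and 3 lower, against 19% and 19.4% of 16639 genes (38.4% in either direction). Tef fell most, from 145 ± 29.5 CPM (SD, n = 4) to 21.4 ± 14.8 CPM (SD, n = 4) on a scale common to all 22 libraries, by 2.77 (adjusted p = 0.000438). Nr1d1 fell from 20.3 ± 13.3 CPM (SD, n = 4) to 5.94 ± 5.00 CPM (SD, n = 4) (adjusted p = 0.021) and Per3 from 15.5 ± 1.37 CPM (SD, n = 4) to 6.71 ± 4.50 CPM (SD, n = 4) (adjusted p = 0.0305). Per1 rose by 1.76 (adjusted p = 0.00149) and Ciart by 1.57 (adjusted p = 0.0251) on the log2 scale in edgeR's quasi-likelihood test. Beside Per1, 6 of 7 immediate early genes rose in WT, against 19% of genes higher, and 4 of 7 in both AhR-KO and CYP1B1-KO, against 20.6% and 33.4% of genes in either direction. Without WT steady-state replicate 4, 2 members were called, against 34.4% of genes, and without WT HDM replicate 3 or 4, 3 were, against 32.3% and 36.5%. Per3 lost its call in 6 of 8 single omissions, and Nr1d1 and Ciart in 3 each. With the hematopoietic level as a covariate no member was called, against 365 of 16639 genes. The log2 fold change of Nr1d1 was then -0.13 and that of Per1 1.81. State and sequencing table cannot be told apart here, nor can state and the presence of Y-linked reads in WT and CYP1B1-KO. The Y-linked genes summed to 228 to 286 CPM in WT and 94.3 to 314 CPM in CYP1B1-KO at steady state and to at most 0.227 and 0.135 CPM after HDM. Beside these, the alveolar type 1 sum was 17566 to 27730.1 CPM at steady state and 247 to 12665 CPM after HDM. The Y-linked and alveolar type 1 sums use a separate scale for each state, so their sizes are not directly comparable between states.

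In CYP1B1-KO, 5 members fell, against 17.9% of genes lower and 33.4% in either direction, and none was called higher. Per1 lay just short of a call, at a log2 fold change of 1.11 ± 0.44 (SE) with every HDM library above every steady-state library (adjusted p = 0.0556 in edgeR's quasi-likelihood test), and was called higher in 9 of 13 alternative settings and in 3 of 7 fits that leave out a library. Ciart was at 1.22 ± 0.58 (SE) (adjusted p = 0.12). Tef fell by 3.10, Nr1d1 by 2.00, Per3 by 1.92, Per2 by 1.62 and Nr1d2 by 1.54 on the log2 scale in edgeR's quasi-likelihood test. There were 2 calls without CYP1B1-KO steady-state replicate 2, against 32.1% of genes, and 3 without CYP1B1-KO HDM replicate 4, against 32.1%. With the hematopoietic covariate there were none, against 505 of 16639 genes. In AhR-KO none was called, against 20.6% of genes in either direction, and 4 had an unadjusted p under 0.05, against 34.3% of genes, Nr1d1 at -1.55, Tef at -1.22, Per1 at 1.06 and Ciart at 1.29. The likelihood ratio test of edgeR called 2 members, DESeq2 1 and limma voom 3, against 24.7%, 27.5% and 28.3% of all genes. Whether HDM acted differently in AhR-KO was tested as an interaction with state. No member and 0% of genes passed the adjusted test, and 1 member, Per3, was higher at an unadjusted p under 0.05, against 9.27% of genes. Its interaction was 1.64 ± 0.65 (SE) on the log2 scale (adjusted p = 0.193 in edgeR's quasi-likelihood test), Tef stood at 1.54 ± 0.78 (SE), and Nr1d1 and Nr1d2 stood at 0.29 ± 0.86 (SE) and 0.13 ± 0.58 (SE), with a 95% interval of -1.39 to 1.98 for Nr1d1. The interaction of CYP1B1-KO and HDM called none either, with 0 members under an unadjusted p of 0.05 against 2.3% of genes. By the likelihood ratio test and DESeq2 both interactions gave 0 called members, against 1.33% and 7.43% of all genes for AhR-KO and 0% for CYP1B1-KO by either, and limma voom called 2 for AhR-KO, against 30.3% of all genes, and 0 for CYP1B1-KO.

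Of 16 other clock genes, 3 rose in WT after HDM, Bhlhe40, the closest relative of Bhlhe41, by 5.08, Timeless by 4.62 and Nfil3 by 2.02 on the log2 scale, and 7 fell, among them Cry2 by 2.42, against 19% of genes higher and 19.4% lower. Bhlhe40 and Cry2 were named here after their values were seen.

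Within a genotype, the highest value of a group often fell in the same library for many members. After HDM, WT replicate 2 was the highest of its group for 10 of 10 members, CYP1B1-KO replicate 2 for 9 and AhR-KO replicate 1 for 7. CYP1B1-KO replicate 3 was lowest for 8. In the pairs of libraries of 1 genotype after HDM, the order of Tef matched the order of the alveolar type 1 sum in 17 of 18 pairs, that of Per3 in 15 and that of Nr1d1 in 14, while Bhlhe41 matched in 10. Over the members, the order of the alveolar type 2 sum matched in 11 to 15 pairs and that of the hematopoietic sum in 6 to 12. At steady state the match was 3 to 8 of 12 pairs with the alveolar type 1 sum and 2 to 8 with the alveolar type 2 sum. With the hematopoietic sum it was 1 to 7 pairs, at 1 for Nr1d2 and 2 for Nr1d1, Per3 and Tef, which in most pairs were thus higher in the library with the lower sum. Libraries are few and pairs share them, so these counts are a description.

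Outside the clock lists, the genes whose log2 CPM was most like the mean standardised level of the members were Ppp1cc, Pik3ip1, Tspan4, Rusc2 and Klf9, with Pearson r of 0.806 to 0.815 over 10 steady-state libraries and 0.89 to 0.95 over 12 HDM libraries. Among those most opposite were Glipr2, Rab32, Ddx10 and Ndrg1, with r of -0.88 and -0.86 for Glipr2 and -0.79 and -0.82 for Ndrg1 in the 2 states. The genes were ranked on the weaker of both r among 13557 genes, and the points share genotype, table and cell make-up.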

How the data were processed

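RNA of sorted lung epithelial cells was sequenced in 22 libraries after template-switch cDNA synthesis from a dT primer and PCR. The authors trimmed the reads with bbduk, aligned them with GSNAP to mm10 (GRCm38) and counted them per gene with featureCounts 2.0.0, after bcl2fastq 2.19.1, per the methods and the submitters' processing notes. The deposited tables hold raw counts of reads for each gene, with no scaling between libraries. Strand and multi-mapping settings are not given in the sources used here. The floor of 3 counts covers counting error only.

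Protein-coding genes (GENCODE M21, matched by Ensembl identifier) were filtered with filterByExpr (minimum count 10, total 15) and normalized with TMM. They were tested in R 4.3.3 with edgeR 4.0.16 (robust glmQLFit, glmQLFTest), with the 3 genotypes of a table in 1 fit and both tables joined for state and interaction. A gene was called at a Benjamini-Hochberg adjusted p of at most 0.05 over all genes tested. Standard errors are the log2 fold change divided by the root of F, and the 95% intervals use a normal quantile of 1.96, so both carry the spread between libraries. With few libraries these intervals are narrower than the test implies. That of Tef in AhR-KO against WT at steady state, 0.025 to 0.80, leaves out 0 at an unadjusted quasi-likelihood p of 0.0586. CPM uses TMM library sizes per table, or of all 22 libraries where levels of members are compared between states. Values of Ptprc and of the marker sums are per table in both states. The alternatives included DESeq2 1.42.0 and limma 3.58.1 (voom with sample weights). The fits were tested on simulated data.

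Groups and replicate numbers came from the labels. The members and lists were chosen with earlier results of these data known. The text names all 10 members, from each other list the 4 genes of lowest p in AhR-KO against WT in each state, the 5 genes most like and the 5 most opposite in pattern, genes whose exons overlap a member and the checks, and says where a gene was named after its value was seen. Some genes that this rule names are not reported here. Promoter windows of RefSeq (GRCm38.p6, 250 bases before the start to 50 after) were searched on both strands. The authors' own tables of fold changes were not used.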

Additional observations from a re-analysis of the deposited data

Results flagged for a closer look

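In 40 groups of 4 libraries (10 members, 4 groups), 2 held a library far from the other 3 by Dixon's criterion, where chance gives about 1 in 20. Per1 in WT after HDM was at 6.91 CPM (129 counts) in replicate 4, and its gap to the nearest library was 0.875 of the range of the group. Ciart in WT after HDM was at 1.59 CPM (7 counts) in replicate 2, with a gap of 0.831 of the range. WT replicate 2 was also the highest WT library after HDM for the other 9 members.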

How the results depend on the processing

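For AhR-KO against WT after HDM (5 members called by edgeR's quasi-likelihood test), no called member turned its direction under any alternative. The calls numbered 8 with limma voom (47.1% of all genes) and 0 with the hematopoietic covariate, with both AhR-KO libraries with Y-linked reads left out, or with the replicate number as a block, which left 1 gene called of 14161. Leaving out a library at a time gave 0 to 6 called members, 0 to 6 other clock genes (main 5) and 0 to 2 output genes (main 2). The other clock genes called were 2 with at least 10 counts required in every library, 11 with limma voom, and 0 with the block, the covariate or the Y-linked libraries left out. The output genes called were 0 without a filter, 6 with limma voom, 1 without the dominant predicted genes or with all genes, and 0 with the block, the covariate or the Y-linked libraries left out. Below the threshold, Per1 ran from -0.21 to 0.41 and Hlf from -0.29 to 1.24 on the log2 scale as libraries were left out in turn, each reversing once. At steady state, AhR-KO against WT gave 3 called members with the likelihood ratio test and DESeq2 and 2 with limma voom, and 2 other clock genes with each of these and 3 with only the compared groups in the fit, where the main count was 0. AhR-KO against CYP1B1-KO gave 1 member with the likelihood ratio test and DESeq2 at steady state, and after HDM 7, 6 and 6 with the likelihood ratio test, DESeq2 and limma voom, and 0 to 6 as libraries were left out. HDM against steady state in WT (5 called) gave 3 with at least 10 counts in every library, which kept 6 members, against 4474 of 8079 genes. It gave 0 with the covariate, against 365 of 16639 genes, and 2 to 4 as libraries were left out. In CYP1B1-KO (5 called) it gave 0 to 6 over 13 alternatives, with 0 for the covariate, against 505 of 16639 genes. As libraries were left out it gave 2 to 5, where Nr1d1 lost its call in 5 of 7 omissions and Per2 in 4. Per1, called higher in 9 of the 13, gained a call in 3 omissions. In AhR-KO (0 called) it gave 1 with at least 10 counts (33.6% of all genes), DESeq2 (27.5%), the block (18.7%), only the compared groups (20.3%) or the Y-linked libraries left out (23.6%), 2 with the likelihood ratio test (24.7%), 3 with limma voom (28.3%) and 0 to 1 as libraries were left out. The interaction of AhR-KO and HDM gave 2 with limma voom. The causes were not tested.

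Upper-quartile scaling moved the median of all genes for AhR-KO against WT after HDM to 0.15 on the log2 scale and left Per2 uncalled at 1.82. The replicate numbers share no stated source. Of 20 same-numbered pairs across groups, 8 had a correlation of deviations over 0.1 (range -0.47 to 0.67), so the numbers were not taken to pair libraries. None of the 30 pairs of libraries of the same genotype and state agreed within sampling noise. Depth limited Dbp, Hlf and Ciart, for which 3 counts came to as much as 1.09 CPM in the shallowest HDM library.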
